A study of Mus musculus with 3 samples.

Results

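The NF-kB subunits and inhibitors were 10 genes chosen by name: the 5 subunit genes Nfkb1, Nfkb2, Rel, Rela and Relb, the 4 genes of the IkB family Nfkbia, Nfkbib, Nfkbie and Nfkbid, and Tnfaip3, which encodes the ubiquitin-editing enzyme A20. All 10 were present among the 55536 annotated genes of the first gene table. NF-kB transcription factors are dimers of the subunit proteins, which the IkB proteins hold in the cytoplasm until a kinase complex, IKK, marks the inhibitor for destruction. Several of these genes are themselves NF-kB targets, so that the inhibitor IkB-alpha and A20 are known as feedback brakes, while p100, the product of Nfkb2, is processed to p52 and pairs with RelB in the non-canonical branch. In regulatory T cells c-Rel, the product of Rel, is known for its part in switching on Foxp3.

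The samples were mouse regulatory T cells, a suppressive CD4 T cell type that expresses Foxp3, which the labels describe as having been through inflammation. The animal was an adult male of 16 weeks of the strain written as Foxp3GFP-DTRCD4CreERT2R26tdTomato, and the labels give no more on its alleles, on the agent behind the inflammation or on the sort; the source is entered as the whole organism. All 3 polyA RNA-seq libraries carry the same biological replicate number and donor and are technical replicates 1, 2 and 3, called libraries 1, 2 and 3 here. There was 1 group, cells without inflammation were not analysed here, and every p-value below measures only the spread between these technical libraries.

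The libraries held 20942875, 18402479 and 17494966 expected counts in annotated genes, and library 3 stood apart from the others. A chi-square test of each gene's counts against counting error alone called 63.9% of 14877 genes at an adjusted p under 0.05, and library 3 was the lowest in 29.8% of the genes tested and the highest in 24.3%, counting called genes only. Libraries 1 and 2 differed in 30.2% of genes, libraries 1 and 3 in 53.9%, and libraries 2 and 3 in 51.4%. Markers of regulatory T cells were high in every library: Foxp3 stood at 77.6, 86.2 and 59.2 TPM (a level scaled for transcript length and library size) and the summed level of 6 markers was 2760, 2229 and 2314 TPM. Erythroid markers summed to 1389, 1097 and 1750 TPM, all 5 being highest in library 3, and 6 B cell markers to 87.6, 89.5 and 108 TPM. The 5 monocyte and macrophage markers summed to 35.8, 36.3 and 25.8 TPM, the 5 dendritic cell markers to 2.64, 2.45 and 3.25 TPM, and the 4 granulocyte markers to 0, 2.69 and 0 TPM. The 2 CD8 T cell markers summed to 16.7, 22.3 and 17.9 TPM and the 4 stromal and epithelial markers to 98.7, 116 and 109 TPM, nearly all of it Pecam1. Their part in the results below was not tested, and in such bulk samples fewer cells of a type and less RNA per cell cannot be told apart.

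Sequence features of the members are shown first, since the text returns to them. Promoter windows from RefSeq (GRCm38.p6, 250 bases before to 50 after a gene's start) matched 8 of the 10 members by symbol, with 13 windows in all; Nfkb1 and Relb were not among them. The kB consensus, the 10-base motif that NF-kB dimers bind, was searched by its letters on both strands. At least 1 match lay in 8 of the 13 windows and in 6 of the 8 genes (Nfkb2, Nfkbia, Nfkbid, Nfkbie, Rel and Tnfaip3), and none in the windows of Nfkbib and Rela, whereas 8.46% of all 32851 promoter windows held a match. A match is a description of letters, not of a bound site, and 2 of the Nfkb2 windows overlap and share a match. The 250 bases before the start are printed for the genes of 3 inhibitors from windows that hold a match and overlap no annotated exon; Nfkbid has 2 further windows, from chr7:30421481 and chr7:30423025, with no match; capitals mark the consensus on either strand.
Nfkbia, chr12:55492648-55492897, minus strand: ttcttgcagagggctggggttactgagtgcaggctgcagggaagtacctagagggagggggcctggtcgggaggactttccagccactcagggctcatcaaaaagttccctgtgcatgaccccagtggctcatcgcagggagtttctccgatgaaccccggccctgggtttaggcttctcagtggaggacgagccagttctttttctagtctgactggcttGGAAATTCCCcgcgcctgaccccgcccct
Nfkbid, chr7:30422156-30422405, plus strand: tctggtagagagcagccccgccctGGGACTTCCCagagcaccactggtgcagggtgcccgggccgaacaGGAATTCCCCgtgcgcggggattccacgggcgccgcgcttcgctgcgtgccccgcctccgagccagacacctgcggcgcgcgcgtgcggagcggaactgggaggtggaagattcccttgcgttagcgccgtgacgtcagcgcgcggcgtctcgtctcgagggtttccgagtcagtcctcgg
Nfkbie, chr17:45555450-45555699, plus strand: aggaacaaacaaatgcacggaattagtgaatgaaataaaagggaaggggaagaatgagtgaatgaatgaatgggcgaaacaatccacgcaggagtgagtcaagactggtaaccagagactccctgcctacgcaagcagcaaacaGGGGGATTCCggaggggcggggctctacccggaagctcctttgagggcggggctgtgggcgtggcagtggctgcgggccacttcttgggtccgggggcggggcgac
The match of Nfkbia began 29 bases before the start, that of Nfkbie 106 bases before it, and those of Nfkbid 226 and 181 bases before it. For the other members with a match, whose windows overlap exons of some transcript, 30 bases around a match are shown.
Nfkb2, chr19:46304688-46304717, plus strand: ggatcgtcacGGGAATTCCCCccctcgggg
Nfkb2, chr19:46305695-46305724, plus strand: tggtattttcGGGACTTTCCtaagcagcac
Rel, chr11:23771042-23771071, minus strand: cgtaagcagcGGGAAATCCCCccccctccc
Tnfaip3, chr10:19015411-19015440, minus strand: gtgactggaatttccatcGGAAATCCCCct
In the first Nfkb2 stretch and in Rel the 11 capitals are a pair of matches that overlap by all but 1 base. The matches began 39 and 225 bases before their respective starts in Nfkb2, 92 bases before it in Rel and 12 bases before it in Tnfaip3.

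All 10 genes were expressed. The summed TPM of Nfkbia, Nfkbib and Nfkbie lay above that of the 5 subunit genes, which did not hold on counts without a correction for length. Of the IkB genes only Nfkbia lay above Rela in mean TPM. Nfkbia was the most abundant member, with 734, 664 and 298 TPM in libraries 1, 2 and 3, and Relb the least, with 26.7, 23.4 and 6.58 TPM. The median of the members' mean levels was 59.1 TPM, against 25.9 TPM over the 10436 protein-coding genes that reached 1 TPM in each library. By mean level the order was Nfkbia, Rela, Nfkbib, Nfkbie, Nfkbid, Nfkb2, Nfkb1, Tnfaip3, Rel and Relb, from rank 208 to rank 6110 of 22028 protein-coding genes. Of the 9 steps between neighbours in that order, only the step from Nfkbia to Rela and that from Rela to Nfkbib exceeded 2 SD of their log2 ratio over the 3 libraries; the other 7 pairs of neighbours did not differ beyond their spread. Without library 3 the number of steps past that limit was 5.

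**Figure D1:**
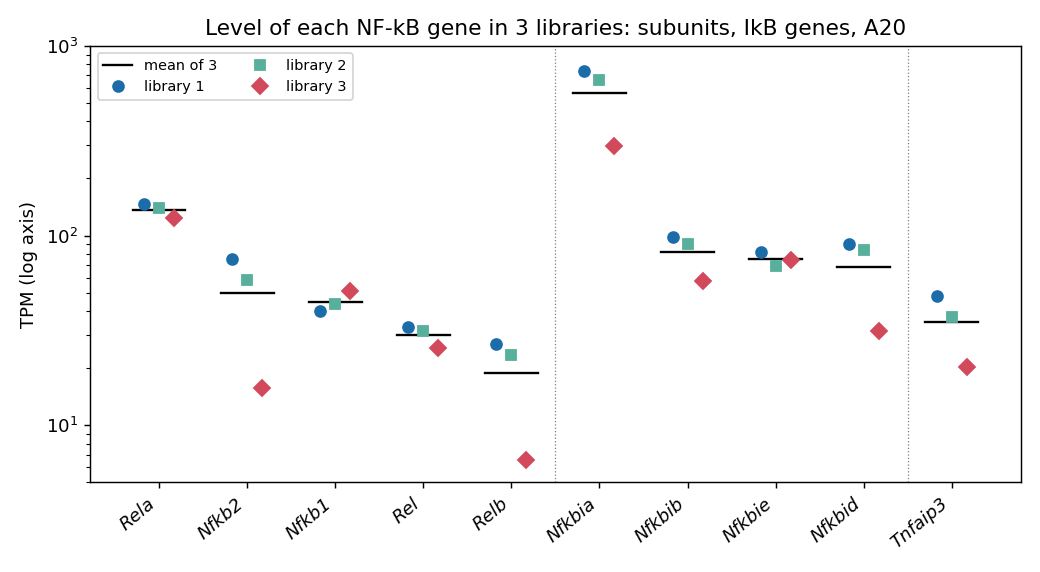
The vertical axis gives TPM on a log axis for each gene, with 1 marker per technical library and a bar at the mean of 3; dotted lines separate subunits, IkB genes and Tnfaip3. Library 3 lies lowest for 8 genes, with the widest gaps at Nfkb2 and Relb, while Nfkb1 is highest there and Nfkbie lies between the others.

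Among the subunits, Rela, which encodes the transactivating subunit p65, led. It lies on chr19:5637483-5648130, plus strand, of mm10 and stood at 146, 140 and 124 TPM (137 ± 11.6, SD, n = 3). These 3 levels were close, with a coefficient of variation of 8.5%. Rel, on chr11:23736847-23770970, minus strand, stood at 32.8, 31.3 and 25.5 TPM (29.9 ± 3.88, SD, n = 3), slightly lower in library 3. The ratio of Rela to Rel had the smallest spread of the 13 ratios computed on TPM over the 3 libraries, though not with library 1 or 2 left out or in the second gene table. Its log2 values were 2.15, 2.16 and 2.28 (2.20 ± 0.07, SD, n = 3), a 4.59-fold excess of Rela in TPM. The size of this excess depends on the correction for length. Without it, the log2 ratio was 0.59 ± 0.09 (SD, n = 3) on the first table's counts and 1.48 ± 0.19 (SD, n = 3) on those of the second.

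Nfkb1, whose product p105 is the precursor of the DNA-binding subunit p50, went the other way. It lies on chr3:135584655-135691547, minus strand, and stood at 39.9, 43.3 and 51.3 TPM (44.8 ± 5.82, SD, n = 3). Library 3 was the highest, and the log2 difference of library 3 from the mean of libraries 1 and 2, on scaled counts, was 0.32 (counting SE 0.05; adjusted p = 2.26e-12, chi-square test on edgeR's scaling). Nfkb1 was the only member called with library 3 highest, a pattern that 24.3% of all genes tested showed.

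The subunit genes of the non-canonical branch were much lower in library 3. Nfkb2, on chr19:46304320-46312385, plus strand, stood at 74.8, 58.2 and 15.8 TPM, so that library 3 lay far below the other libraries. The log2 difference of library 3 from the mean of the others was -2.04 on scaled counts (counting SE 0.06; chi-square 1385), a value at percentile 1.25 of all genes tested. Relb, on chr7:19606217-19629438, minus strand, showed the same picture, with 746, 609 and 167 expected counts behind its levels and a log2 difference of -1.93 (counting SE 0.12; adjusted p = 1.09e-67, chi-square test on edgeR's scaling). Their proportion to each other varied little: the log2 ratio of Relb to Nfkb2 was -1.49, -1.32 and -1.26 (-1.35 ± 0.12, SD, n = 3). Their proportion to the rest changed, since Nfkb2 and Relb together made up 31.7%, 27.5% and 10.03% of the summed TPM of the 5 subunits, while Rela made up 45.6%, 47.3% and 55.5%. The log2 ratio of Nfkb1 to Nfkb2 even turned its sign, from -0.91 and -0.43 in libraries 1 and 2 to 1.70 in library 3, so that which precursor gene is the more abundant depends on the library. Exons of AC114539.1 on the opposite strand share 531 bases with Nfkb2 and those of Psd 299 bases. AC114539.1 had 801, 642 and 457 counts, and the sources used here do not say whether the counting used strand.

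The inhibitor genes of the classical type were led by Nfkbia, which encodes IkB-alpha. Its gene, on chr12:55489410-55492647, minus strand, had 10453, 8604 and 3962 expected counts and a mean of 565 ± 234 TPM (SD, n = 3). Library 3 held less than the others, with a log2 difference of -1.18 on scaled counts (counting SE 0.03; chi-square 2362), the largest chi-square among the members. Nfkbib, which encodes IkB-beta and lies on chr7:28758251-28767512, minus strand, stood at 97.9, 90.0 and 57.9 TPM (81.9 ± 21.2, SD, n = 3), a log2 difference of -0.68 (counting SE 0.06; adjusted p = 1.67e-32, chi-square test on edgeR's scaling). Nfkbie, which encodes IkB-epsilon and lies on chr17:45555703-45563169, plus strand, stood at 82.0, 69.2 and 74.0 TPM (75.1 ± 6.49, SD, n = 3). Its library 3 value lay between the others, the log2 difference being -0.00 (counting SE 0.04), and it was called (adjusted p = 2.37e-05, same test) with library 1 the highest; libraries 2 and 3 were not told apart. Exons of Sirt2 on the opposite strand share 42 bases with Nfkbib.

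The 3 classical inhibitors summed to more transcripts than the 5 subunits, with a log2 ratio of 1.51, 1.47 and 0.95 (1.31 ± 0.32, SD, n = 3), or 2.48-fold on average. Nfkbia alone made up 73.1%, 73.2% and 64.6% of the summed TPM of the 4 IkB genes. Of its own TPM, 49.7%, 50.9% and 47.5% was assigned to Nfkbia-202, a retained intron transcript with no annotated start or stop codon. The excess of Nfkbia over Rela was 2.33, 2.24 and 1.27 on the log2 scale. Both ratios depend on the correction for length and on the gene table. On the first table's counts without a length correction, the log2 ratio of the sums was 0.03 ± 0.22 (SD, n = 3) and that of Nfkbia to Rela 0.79 ± 0.59 (SD, n = 3), neither past 2 SD. On the counts of the second gene table, likewise not scaled for length, they were -0.48 and -0.11.

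Nfkbid encodes IkB-NS, a nuclear IkB protein known for its part in inducing Foxp3. It lies on chr7:30421732-30428746, plus strand, and stood at 90.0, 84.1 and 31.4 TPM (68.5 ± 32.3, SD, n = 3). Libraries 1 and 2 were close and library 3 was far below, with a log2 difference of -1.38 (counting SE 0.06; adjusted p = 2.51e-131, chi-square test on edgeR's scaling). Among other IkB-type and nuclear regulators, Nfkbiz, which encodes IkB-zeta, had the same pattern, with 32.9, 29.9 and 11.99 TPM, and Bcl3 was lower as well, with 13.2, 9.29 and 7.77 TPM; both were named after their values were seen.

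Tnfaip3 lies on chr10:19000910-19015657, minus strand, and stood at 47.8, 37.3 and 20.2 TPM (35.1 ± 13.9, SD, n = 3). All 3 libraries were apart: library 2 was below library 1 by a log2 difference of -0.26, and library 3 was below their mean by one of -1.06 (counting SE 0.05; adjusted p = 3.96e-115, chi-square test on edgeR's scaling). The log2 ratio of Tnfaip3 to Nfkbia, both known as feedback brakes, was -3.94, -4.15 and -3.88 (-3.99 ± 0.14, SD, n = 3) in the first gene table, a small spread. In the second gene table, not scaled for length, it was -1.11 ± 0.51 (SD, n = 3).

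Read against all genes, the member counts were as follows. All 10 members were called as differing between the libraries, against 63.9% of all genes tested and 74.9% of those with a mean count of at least 50. Library 3 was the lowest in 8 of the 10, against 29.8%, and the highest in 1, against 24.3%. Between libraries 1 and 2 the call held for 5 members (Nfkb1, Nfkb2, Nfkbia, Nfkbie and Tnfaip3), against 30.2%, between libraries 1 and 3 for 10, against 53.9%, and between libraries 2 and 3 for 9, all but Nfkbie, against 51.4%. The median log2 difference of library 3 was -0.87 over the members and 0.01 over all genes, whose 5th and 95th percentiles were -1.57 and 0.69. The differences were unequal, from -2.04 at Nfkb2 to 0.32 at Nfkb1, and only Nfkb2 and Relb lay outside those percentiles.

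The deviation of library 3 moved with base composition in protein-coding genes. Local GC content was taken as the highest GC content of any 200-base window of a gene's most abundant transcript, and its Spearman rho with the log2 difference of library 3 was -0.54 over 9305 protein-coding genes of the same 3 libraries and -0.43 over the 10 members. The relation was not a straight line: the median log2 difference was 0.08 for the 2156 genes from 60% up to 65%, -0.84 for the 1439 genes from 70% up to 75%, -0.99 for the 932 genes from 75% up to 80%, and -0.17 for the 327 genes from 80% up to 85%. The members followed its shape in part. Nfkb1 had the lowest local GC, 62.5%, and was the member that was higher, and Rela had the highest, 81.0%, and was only slightly lower. The Nfkb1 value was taken from Nfkb1-203, its most abundant transcript, which begins downstream of the annotated start codon of the gene. Exons of Nfkb1 upstream of it were not scanned, so its local GC may be understated. Nfkb2 and Nfkbib shared 71.5% but differed by -2.04 against -0.68.

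**Figure D2:**
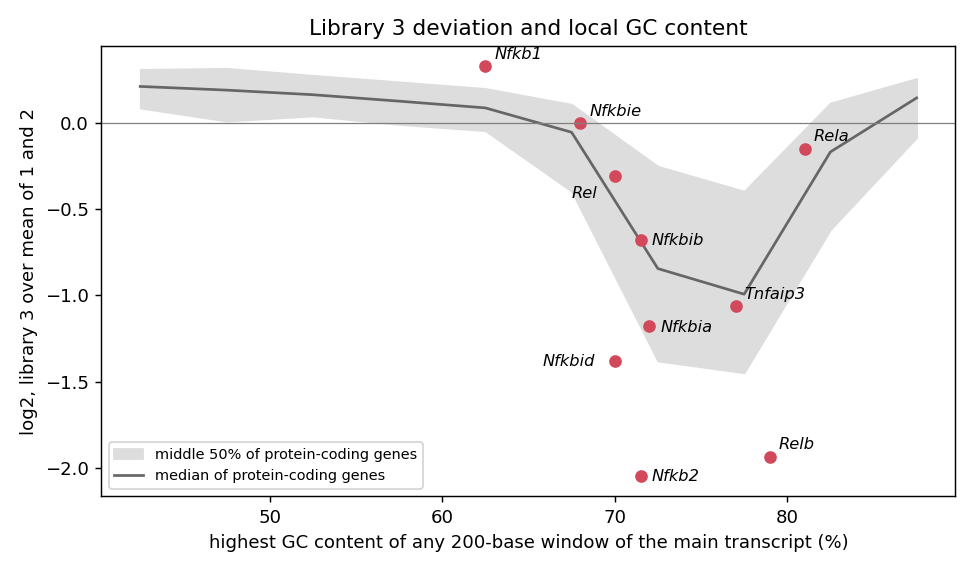
The horizontal axis gives the highest GC content of any 200-base window of the main transcript in percent and the vertical axis the log2 difference of library 3 from the mean of libraries 1 and 2; the line and band are the median and the middle 50% of protein-coding genes in steps of 5%. The median dips to -0.99 from 75% up to 80% and returns to -0.17 from 80% up to 85%, with Rela near the line and Nfkb2 and Relb well below the band.

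With that trend taken out of the counts, 9 members were still called, all but Nfkbib (adjusted p = 0.62, chi-square test on edgeR's scaling), against 58.7% of all genes. The log2 differences of library 3 were then -1.38 for Nfkb2, -1.36 for Relb, -0.92 for Nfkbid, -0.46 for Nfkbia and -0.32 for Tnfaip3. Rel and Rela turned from -0.31 and -0.15 to 0.14 and 0.24, and the members' median moved from -0.87 to -0.17. The order of the genes at the low end was kept, with Nfkb2, Relb and Nfkbid still the lowest 3.

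The second gene table, whose counts are whole numbers on an older annotation, called 9 members, all but Rela, against 56.7% of its genes. Relb at -2.13, Nfkb2 at -1.80, Nfkbid at -1.14 and Tnfaip3 at -1.02 were again low in library 3 on the log2 scale, and Nfkb1 at 0.30 again high. Nfkbia was the member that differed most between the tables, with a log2 difference of -0.17 in place of -1.18. Its second-table counts were 1840, 1805 and 1457, which is 17.6%, 20.98% and 36.8% of its expected counts. Over all genes, the share that the second table held fell with level only from 100 TPM up. In library 1 its median was 49.9% for genes from 1 up to 10 TPM, 51.5% from 10 up to 30 TPM and 50.04% from 30 up to 100 TPM. It was 35.9% from 100 up to 300 TPM and 16.3% from 300 up to 1000 TPM. In library 3 the medians were, in the same order, 46.1%, 48.8%, 48.5%, 37.1% and 15.7%. Nfkbia lay at 734 and 664 TPM in libraries 1 and 2 and at 298 TPM in library 3, at the edge between the last 2 ranges. Whether level has a part in the difference between the tables was not tested. The size of its drop in library 3 depends on the table, and the sources used here do not say how the second table was counted.

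**Figure D3:**
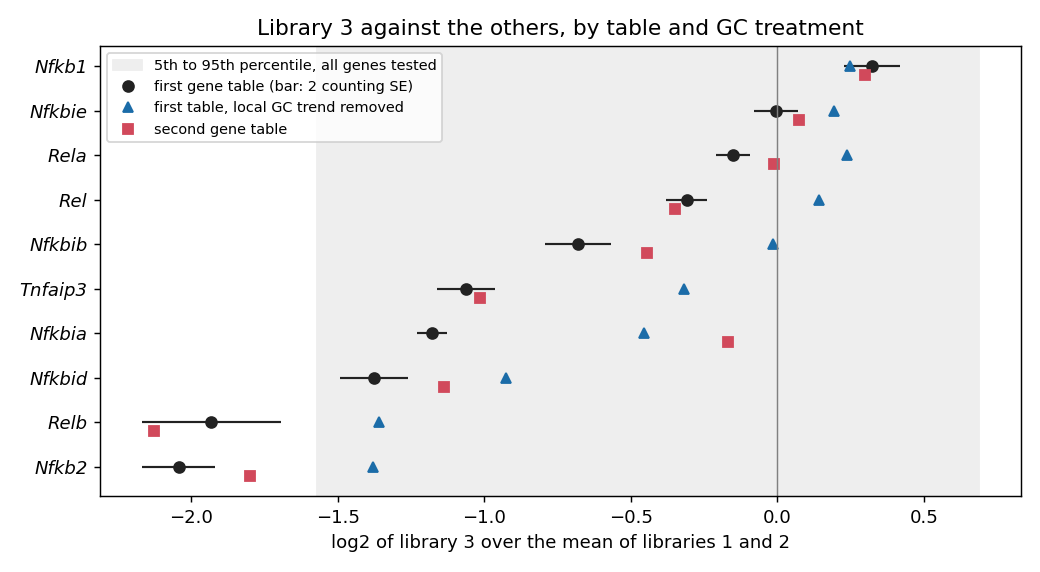
The horizontal axis gives the log2 of library 3 over the mean of libraries 1 and 2 for each member in the first gene table, with bars of 2 counting SE, in that table with the local GC trend removed, and in the second gene table; the grey band spans the 5th to 95th percentile of all genes tested in the first table, -1.57 to 0.69. Nfkb2, Relb and Nfkbid stay lowest in all 3, and Nfkbia moves from -1.18 to -0.46 and -0.17.

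The transcript tables give the share of a gene's TPM estimated for each annotated transcript. The same transcript led in all 3 libraries for 6 of the 10 members, among them Rel, for which Rel-201 is the 1 transcript annotated. Nfkbib had 96.5% ± 0.51 (SD, n = 3) in Nfkbib-202, Rela 87.5% ± 1.83 in Rela-201 and Nfkbie 82.4% ± 4.2 in Nfkbie-201. Nfkb2-204 held 54.7%, 61.3% and 77.1% of Nfkb2, and Nfkbid was divided between Nfkbid-201, with 48.3%, 46.1% and 44.0%, and Nfkbid-203, with 32.8%, 39.4% and 40.7%.

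Relb showed a complete switch in these estimates. Relb-202 held 79.2% and 81.2% in libraries 1 and 2 and 0% in library 3, where Relb-201 held 77.2% in place of 8.15% and 8.75%. The transcripts differ by a single exon of 9 bases, exon 3 of Relb-202, at chr7:19622926-19622934 on the minus strand, a length of 3 codons that keeps the reading frame. The joined sequence is shown with 20 bases on either side, the exon in capitals, and without it.
Relb-202: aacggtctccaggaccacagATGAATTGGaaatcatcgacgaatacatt
Relb-201: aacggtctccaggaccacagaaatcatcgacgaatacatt
The deposited effective lengths are 49 bases under the full lengths, as reads of 50 bases give. Of the 2160 positions at which such a read can start in Relb-202, 58, or 2.69%, touch this exon. If every Relb transcript held the exon, about 20.03, 16.4 and 4.48 of the 746, 609 and 167 Relb counts would be expected to touch it. The switch in library 3 thus rests on under 5 expected reads, and no test of the use of this exon was made.

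For Nfkbia the estimates were near even, with 50.3%, 49.1% and 52.5% in Nfkbia-201, the coding transcript, and the rest in Nfkbia-202, annotated as a retained intron transcript of 701 bases. All but 32 bases of Nfkbia-202 lie within exons of Nfkbia-201. Those 32 bases, at chr12:55491779-55491810 on the minus strand, are the only sequence that is particular to it, shown in capitals before the first 20 shared bases.
Nfkbia-202: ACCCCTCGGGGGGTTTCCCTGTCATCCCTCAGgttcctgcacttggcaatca
Counted by expected counts rather than by TPM, the share of Nfkbia-201 was 70.3%, 69.3% and 72.2%, because the shorter transcript gets more TPM per count. The shares of the 3 libraries lay close together although the gene's level in library 3 was less than that in the others. Reads over the bases particular to Nfkbia-202 were not counted, and no test of this estimated split was made.

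Nfkb1 stood out by how little of its signal was assigned to transcripts with an annotated start and stop codon, which held 3.79%, 3.22% and 1.27% of its TPM, against 85.6% for Relb and more for the other members save Nfkbia, at 50.6%. Its leading transcripts were Nfkb1-203, with 26.4%, 32.6% and 38.3%, and Nfkb1-207, annotated as a target of nonsense-mediated decay, with 30.6%, 32.3% and 29.7%. Neither has an annotated start codon. Both lie wholly within exons of Nfkb1-201, with their first exons beginning at chr3:135608270 and chr3:135603796, far downstream of the start codon of Nfkb1-201 at chr3:135667783 on the minus strand. Neither thus holds a base that Nfkb1-201 lacks. The shares are estimates, and how firmly the reads tell these transcripts from Nfkb1-201 was not tested.

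Tnfaip3 was divided between Tnfaip3-201 and Tnfaip3-202, which have different first exons and the same start codon at chr10:19011773. Tnfaip3-201 held 52.4%, 76.6% and 36.7% and Tnfaip3-202 held 38.8%, 17.7% and 53.3%. No order of the pair was common to the 3 libraries, and the first exon of Tnfaip3-201, not that of Tnfaip3-202, is the one whose promoter window held the kB matches.

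**Figure D4:**
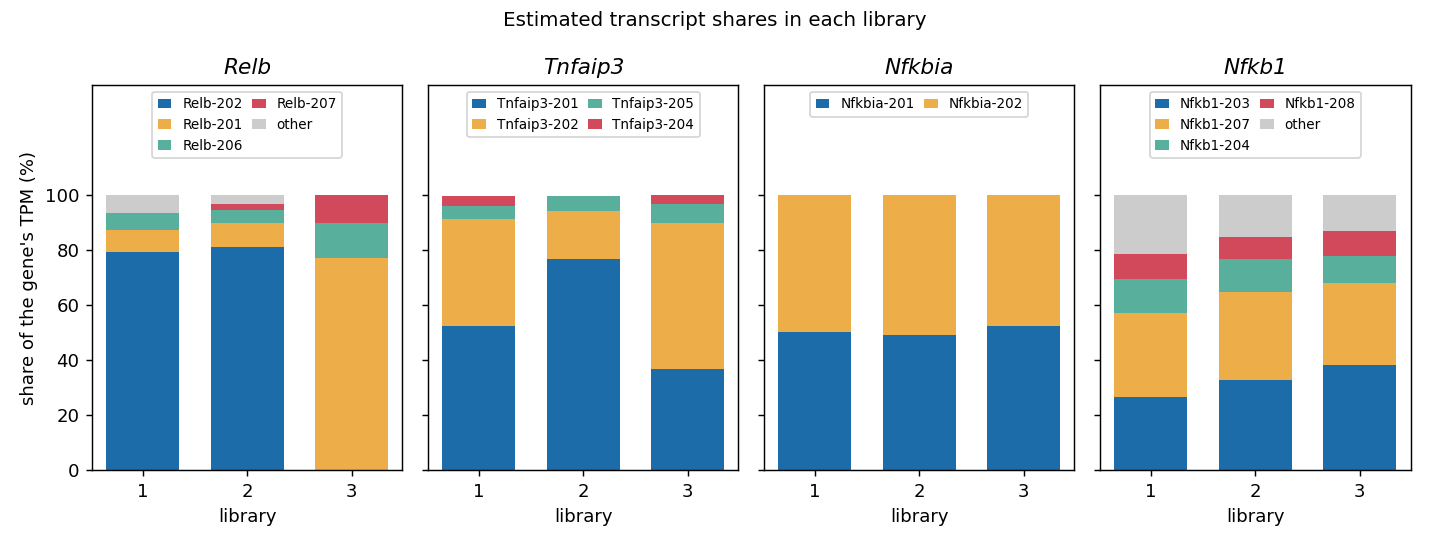
Each bar gives the share of the gene's TPM in percent assigned to each named transcript in 1 technical library, for Relb, Tnfaip3, Nfkbia and Nfkb1. Relb passes from Relb-202 in libraries 1 and 2 to Relb-201 in library 3, Tnfaip3 varies between all 3 libraries, and Nfkbia stays near 50%.

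The genes that act above and beside the members were described from 6 lists of 61 genes in all, of which 60 reached 1 TPM in each library and 53 were called as differing between libraries, 28 with library 3 lowest and 15 with it highest. Over all genes tested 63.9% were called, 29.8% with library 3 lowest and 24.3% with it highest, and the share called was 74.9% where the mean count was 50 or more. Of the 10 genes of IKK and its kinases, 8 were called, against 63.9% of all genes, 3 with library 3 lowest, near the 29.8% of all genes, and 5 highest, against 24.3%. Ikbkb, the catalytic subunit IKK-beta, had 239, 225 and 241 TPM, IKK-epsilon (Ikbke) had 174, 165 and 187 TPM, and Tbk1 had 88.1, 90.1 and 105 TPM. These led the list, with log2 differences of library 3 of 0.03, 0.11 and 0.07, whereas Chuk, the IKK-alpha subunit of the non-canonical branch, had 41.4, 35.8 and 15.3 TPM, a log2 difference of -1.51. Map3k14, which encodes the kinase NIK of the same branch, had 28.2, 31.8 and 32.6 TPM. Chuk and Map3k14 were named after their values were seen.

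Of the 6 genes from the T cell receptor to IKK, 6 were called, 4 with library 3 lowest, 1 highest and 1 between, against 63.9%, 29.8% and 24.3% of all genes called, lowest and highest. Prkcq, which encodes protein kinase C theta, had 163, 152 and 87.2 TPM, while the adaptor Bcl10, with 91.5, 84.1 and 97.4 TPM, varied less. Of the 11 TNF receptor adaptors and ubiquitin ligases, 11 were called, against 63.9% of all genes, and 9 were called with library 3 lowest, against 29.8%; their median level of 114 TPM was the highest of the 6 lists. Traf1 had 464, 400 and 385 TPM, and Rbck1 and Sharpin, subunits of the linear ubiquitin ligase, had 328, 292 and 136 TPM and 173, 185 and 79.5 TPM. The linear ubiquitin ligase subunits were lower in library 3 together with Tradd, at 49.4, 45.5 and 11.1 TPM, and Ripk1, at 21.8, 21.7 and 8.98 TPM, the last 2 named after their values were seen. Local GC was 75.5% in Prkcq and 73.0% in Bcl10. It was 78.0% in Ripk1, 73.0% in Rbck1, 69.5% in Tradd, 61.5% in Traf1 and 58.5% in Sharpin, and its part here was not tested.

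Of the 9 partners of A20 and deubiquitinases, 8 were called, against 63.9% of all genes, 3 with library 3 lowest and 2 highest, near the shares of 29.8% and 24.3%. Tax1bp1 had 250, 236 and 269 TPM, Tnip1 had 156, 140 and 142 TPM and Cyld, a deubiquitinase that restrains NF-kB, had 157, 139 and 135 TPM. Their log2 differences of library 3 were 0.10, -0.05 and -0.11, against -1.06 for Tnfaip3. The drop was not particular to Tnfaip3, since Tnip2 stood at -1.40 and Otud7b at -0.84, both named after their values were seen. The median of the list was -0.11. Local GC was at most 64.5% in Tax1bp1, Tnip1 and Cyld and at least 71.5% in Tnip2, Otud7b and Tnfaip3. The part of local GC in this contrast was not tested. Of the 8 other IkB-type and nuclear regulators, 5 were called, near the 63.9% of all genes. Library 3 was lowest in 3 of these, highest in 1 and between in 1, against 29.8% lowest and 24.3% highest over all genes. The list was led by Pdlim2 at 130 TPM and Commd1 at 88.6 TPM on average, both called, and Nkiras1 at 25.3 TPM, which was not.

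Of the 17 known target genes, 15 were called, against 63.9% of all genes, 6 with library 3 lowest and 5 highest, near the shares of 29.8% and 24.3%. Their median log2 difference was -0.06, against -0.87 for the members and 0.01 for all genes. Local GC differed between the sets, from 54.0% to 70.5% in the targets and from 62.5% to 81.0% in the members. With the GC trend removed the members' median was -0.17, and that of the targets is not given here. The targets of highest local GC, Gadd45b, Cd83 and Myc at 70.5%, 70.0% and 68.0%, had log2 differences of -0.66, -0.69 and -0.73. The next in local GC, Ier3 at 67.5% and Bcl2l1 at 66.5%, had 0.22, on 23, 19 and 23 counts, and -0.10. These targets were named after their values were seen, and the part of local GC was not tested. Tnfrsf4, the receptor OX40, had 825, 665 and 618 TPM. Ccr7, a homing receptor, had 327, 420 and 478 TPM and was highest in library 3, and Il2ra, the IL-2 receptor chain that marks these cells, had 302, 276 and 275 TPM. The difference between the medians was not tested. Il2, the one listed gene under 1 TPM in a library, had 0.71, 2.43 and 5.64 TPM.

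**Figure D5:**
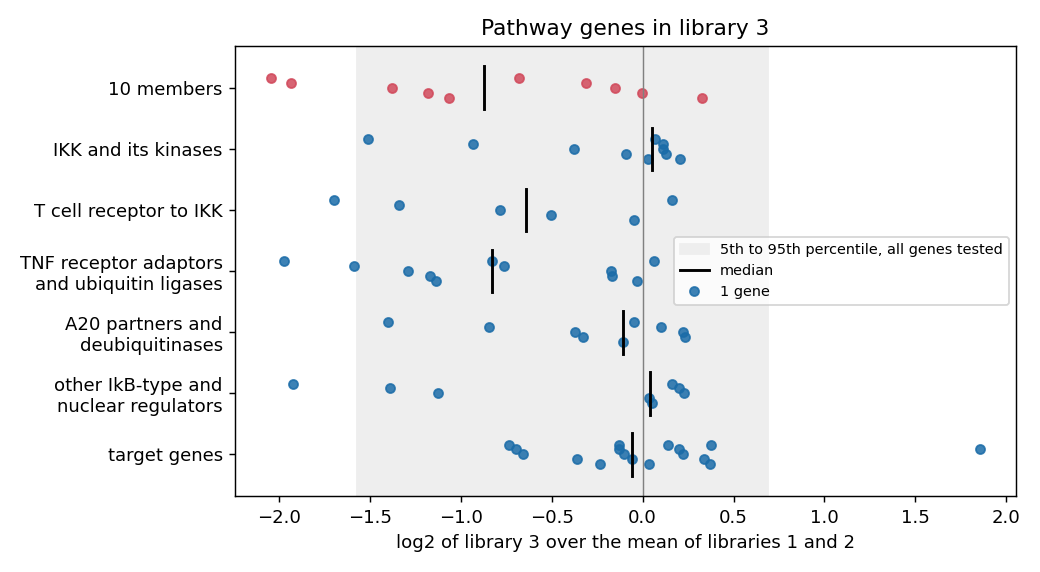
The horizontal axis gives the log2 of library 3 over the mean of libraries 1 and 2, with 1 point per gene, a bar at the median of each list and the 5th to 95th percentile of all genes tested in grey, -1.57 to 0.69. The medians of the members, -0.87, of the TNF receptor adaptors, -0.83, and of the T cell receptor list, -0.64, lie below 0, and those of the other lists near it; Il2 is the point at 1.86.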

How the data were processed

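The deposited first gene table and transcript table of each library list expected counts, TPM, FPKM and, per transcript, the percent of the gene's TPM, per the file headers; their identifiers match GENCODE M21 on mm10. The deposited second gene table lists whole-number counts on GENCODE M4. The sources used here do not give the aligner, the counter, their versions or the use of strand. Spike-in, transfer RNA and other rows outside the annotation were left out.

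Expected counts were rounded and scaled with edgeR 4.0.16 TMM factors, and each gene with a mean count of at least 10 was tested by a Pearson chi-square on 2 degrees of freedom against Poisson sampling, with Benjamini-Hochberg adjustment over all genes at 0.05 (scipy 1.17.1, R 4.3.3), as there was 1 group and no contrast to fit. The test was run on simulated Poisson counts, the sampling that it assumes. That run cannot show how it behaves on counts with further spread. Ratios between genes used TPM, told apart past 2 SD over libraries. Detection meant 1 TPM in each library. Alternatives were DESeq2 1.42.0 size factors, total counts, a minimum of 50 or none, the second table, log2(TPM + 1), FPKM, removal of a lowess trend on local GC (statsmodels 0.14.6) and leaving out each library. The text names all members, the top 3 genes by mean TPM of each list, genes that overlap a member's exons and markers, and says where a gene was added; 1 gene that this rule names is not reported here. Members, lists and tests were chosen with earlier results of these data known. Intervals and counting SE cover counting error only.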

Additional observations from a re-analysis of the deposited data

How the results depend on the processing

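Members called as differing numbered 9 or 10 under the other scalings, filters and gene table and with the GC trend removed. The share of all genes called was 64.3% with DESeq2 factors, 67.7% with total counts, 30.2% without a filter and 74.9% at a minimum of 50. It was 56.7% in the second gene table and 58.7% with the GC trend removed. With library 1, 2 or 3 left out, 9, 10 and 5 members were called, against 51.4%, 53.9% and 30.2% of all genes. The genes called in all numbered 4489 to 8029 with 1 library left out and 6222 in the second gene table, which tests fewer genes. The members' median log2 difference of library 3 was -0.86 with DESeq2 factors, -0.79 with total counts, -0.40 in the second gene table and -0.17 with the local GC trend removed, and from -0.95 to -0.79 with library 1 or 2 left out; the cause of these shifts was not tested. Nfkbie, near 0, turned to 0.0056 with DESeq2 factors, 0.0795 with total counts and 0.0754 in the second table, ranged from -0.1043 to 0.0988 with library 1 or 2 left out, and turned to 0.19 with the GC trend removed, where Rel and Rela turned to 0.14 and 0.24. On the first table's counts without scaling for length, the log2 ratio of inhibitors to subunits was 0.03 and that of Nfkbia to Rela 0.79, neither past 2 SD any longer. In the second table, not scaled for length, the log2 ratio of Nfkbia to Rela was -0.11 (Rela to Nfkbia 0.11) and that of inhibitors to subunits -0.48. Steps told apart in the order of levels ranged from 2 to 5 with 1 library left out, and the median share of the leading transcript, 59.8%, from 58.6% to 72.4%. Ratios told apart numbered 8 to 11 in all settings run, against 9. No paired analysis was possible because there was 1 group. In library 3 under 5 reads are expected over the exon that tells the Relb transcripts apart.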
